A study of Mus musculus with 3264 samples.

Results

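T cells picked from mouse blood were set against a cultured mouse T line, gene by gene, with wells of 1 blood cell each on one side and 120 wells of 1 line cell each on the other, out of 3264 wells in the series. The blood T wells number 15, 12, 27, 23, 12, 18, 30 and 39 on the 8 blood plates. They were taken from mononuclear blood cells (PBMC) of the strain C57BL/6J by a rule on their own counts. A well had to show at least 300 detected genes, a count in at least 2 of the 7 T cell genes Cd3d, Cd3e, Cd3g, Trac, Trbc2, Lat and Lck, and no count of the B cell receptor genes Cd79a and Cd79b. Of the PBMC wells in the table, 97.98% had 300 genes, and 180 of these wells (52.02% of all) also had 2 of the T cell genes. Of those 180, 4 were left out for a Cd79 count, which leaves 50.9% of the PBMC wells (exact 95% interval 45.5 to 56.3%), and 28.6 to 66.1% by plate. That interval treats wells as independent draws, and the plates spread wider than it. The line wells are those whose label gives the type T, 120 with data, which is 83.3% of those labelled, taken from a mixture of 3 murine lines, a leukemia line, a T line and a hematopoietic progenitor line, whose strain the labels give as NA.

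Both kinds of well were filled by ALPS, an imaging and picking system that places a chosen cell in a well of a plate. The blood cells were picked after time-lapse imaging and sit on 8 plates, and the line cells were picked as targets from the mixture and sit on 4 other plates. The labels name no drug, allele or genotype for either side, and no animal or culture, so each side counts as 1 sample. There is therefore no test and no p-value, and plates serve as technical splits. Blood against culture, mouse strain, plate, time-lapse imaging, table and depth change together between the sides and cannot be told apart.

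T cells in blood are mostly small resting lymphocytes that live on survival signals, above all interleukin 7, and circulate between blood and lymph nodes by means of homing receptors. A resting T cell keeps its antigen receptor and the kinases behind it ready, holds back growth and division through factors such as Klf2, Foxo1, Tob1 and Btg1, and carries high MHC class I on its surface. A growing line in culture divides continuously, which asks for DNA replication, mitosis, new ribosomes, glycolysis, amino acids and membrane lipids.

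The rule rests on 7 genes, so the counts of those genes are described here and support nothing. A count was present for Trbc2 in 84.7% of blood T wells, Lat in 70.5%, Trac in 54.5%, Lck in 52.8%, Cd3d in 51.7%, Cd3e in 30.7% and Cd3g in 18.8%. Of the blood T wells, 39 (22.2%) had exactly 2 of the 7 genes. Just outside, among wells with 300 genes and no count of Cd79a or Cd79b, 28 had 1 of them and 41 had 0. The blood T well with the fewest genes had 1.83 times the minimum of 300, and of the 7 wells below the minimum, the highest of them at 97.7% of it, 0 had 2 of the T cell genes. The receptor constant chains Trac, Trbc1 and Trbc2 are listed for the PBMC only, among 270 antigen receptor names that the line table lacks, so they enter no comparison.

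The wells differed strongly in depth. With the ribosomal RNA gene Rn45s left out, blood T wells held 353447 expected counts in all and 1899 in the median well, and T line wells held 4271020 and 33401. Rn45s itself took 22.6% of counts in blood T wells and 10.8% in T line wells. Values are given as CPM, the counts of a side or plate scaled to a sum of 1e+06, so 1 count is worth 2.83 CPM over the blood T wells, 12.1 to 52.7 CPM on a blood plate, and 0.234 CPM over the T line wells. A gene with no count is limited to 8.49 CPM in blood T wells and to 0.702 CPM in T line wells, the worth of 3 counts. CPM sums cannot tell fewer cells of a kind from less of an RNA per cell.

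The marker genes are Cd3e of the receptor complex, the kinase Lck and the T lineage factor Tcf7. Cd3e and Lck chose the blood T wells and are described only for them, so Tcf7 alone checks the label there, whereas all 3 check the T line wells. Cd3e stood at 212.2 CPM in blood T wells and 217.3 CPM in T line wells, Lck at 422.98 CPM in blood T wells and 107.1 CPM in T line wells, and Tcf7 at 1319.9 CPM in blood T wells and 770.5 CPM in T line wells. In wells thinned to 1000 counts each, Tcf7 was seen in 64.4% of blood T wells (56.8 to 71.5%) and 56.7% of T line wells (47.3 to 65.7%). It was seen in 2.35% of 85 B cell wells of the same blood plates. Those wells had at least 300 genes, a count of Cd79a or Cd79b and fewer than 2 of the T cell genes of the rule. They were picked in part for few T cell genes, so they are no independent background. The median well held 2407 counts in blood T wells and 1859 in B cell wells, Rn45s included. All 3 marker genes were thus present in the T line wells, and Tcf7 in the blood T wells. Intervals on shares of wells, here and below, treat wells as independent draws. They leave out differences among plates, animals and cultures, so they do not test the sides against each other. Other blood cells left little in the blood T wells, with the B cell genes Ms4a1 and Cd74, the monocyte genes Lyz2 and Csf1r, the neutrophil genes S100a8 and S100a9 and the platelet genes Pf4 and Ppbp at 0 counts, while the monocyte genes Ctss and Ccr2 stood at 104.7 against 0.234 CPM and 48.1 against 0.234 CPM in blood and line. The B cell genes are no separate check, since the rule had already left out wells with a Cd79 count. The part of monocyte RNA in the results was not tested. NK genes were present, and are taken up with the cytotoxic genes.

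Across all genes blood T cells differed from the T line in both directions. A gene was called higher or lower in blood T wells where the log2 ratio of blood to line, with 10 CPM added to each, passed 2 (4-fold) and all 8 blood plates lay above, or below, all 4 line plates. Of 4010 genes with at least 50 CPM and 30 counts on the higher side, 9.58% were called higher and 15.8% lower. These shares are the base for the list counts given below. The median log2 ratio was -0.57 with an SD of 1.84 over genes, and 37.5% of the genes lay within 2-fold. Among the 2068 genes with 50 CPM on both sides the median was -0.08. With the T line wells thinned to the depth of the blood T wells, 14.6% of 2601 genes were called higher and 12.96% lower, so which direction holds more genes depends on depth.

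**Figure D1:**
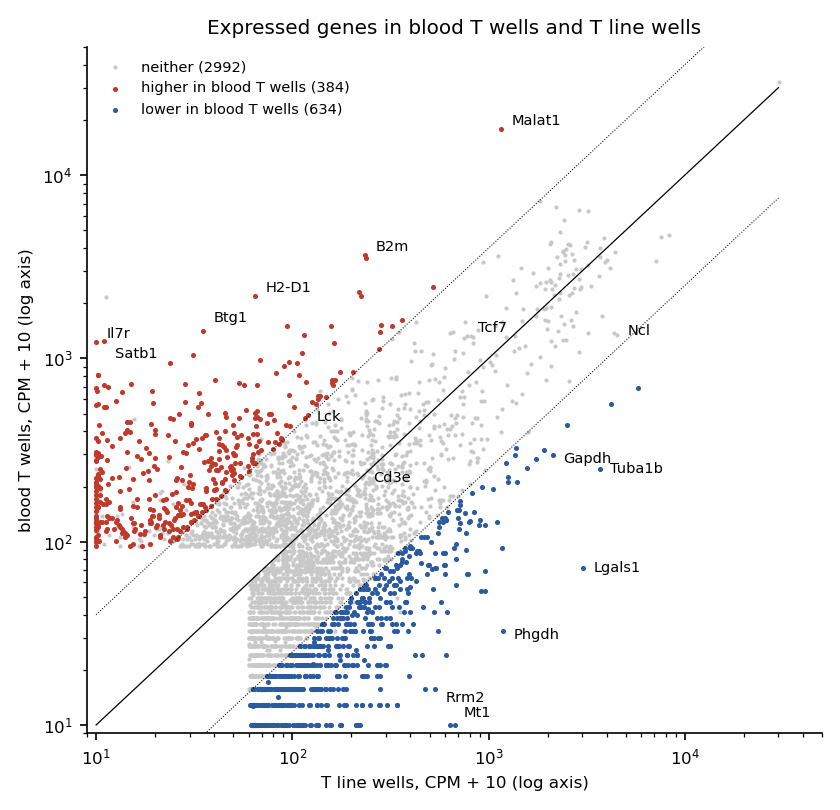
Each point is 1 of the 4010 genes, with blood T wells on the vertical axis against T line wells on the horizontal axis, both as CPM plus 10 on log axes. The solid line marks equal levels and the dotted lines 4-fold. Red marks the 9.58% called higher in blood T wells and blue the 15.8% called lower, with Il7r and Satb1 at the upper left edge and Mt1 and Lgals1 at the lower right.

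Receptor genes outside the rule were higher in blood T wells or not called. Of 13 receptor and coreceptor genes, 12 were in both tables, 8 reached the expression minimum, 3 were called higher in blood T wells and 0 lower, with a median log2 ratio of 2.60 against -0.57 over all genes. Against the time-lapse line wells described below, 2 of 8 were called higher and the median was 0.92. The signalling chain Cd247 (CD3 zeta) lay between 29.3 and 525.9 CPM on the blood plates (median 352.4) and was 0 on all 4 line plates, at least 511.6-fold higher. The costimulatory receptor Cd28 lay between 264.2 and 643.9 CPM on the blood plates (median 470.2), with 17.02, 14.3, 17.1 and 17.5 CPM on the 4 line plates, 29.9-fold higher (22.5 to 40.01), where the parentheses hold the exact 95% binomial interval for counting error only, as they do after each fold below. The blood plates lay clear of the line plates for both genes.

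Both of these stood higher in line wells picked another way. Other wells were picked from the same mixture after time-lapse imaging, and the labels do not give their type. In the 31.3% of these whose profile lay nearest the labelled T wells, summed and called time-lapse line wells here, Cd28 stood at 431.6 CPM and Cd247 at 60.1 CPM. Thy1, a surface protein of T cells, stood at 434.3 CPM in blood T wells and 672.8 CPM in T line wells, but at 6.64 CPM in the time-lapse line wells. Another set of line wells was picked at random from the mixture. In those nearest the T profile, called random line wells here, Cd28 stood at 13.8 CPM, Cd247 at 0 and Thy1 at 722.9 CPM. These levels were close to those of the labelled T wells. The adhesion receptor Cd2 was 169.2-fold higher (54.1 to 853.2), with 0.706 CPM in the time-lapse line wells. Coreceptors were sparse, and their plates overlapped or reached 0. A count of Cd4 alone was present in 22 blood T wells and 0 T line wells, and a count of Cd8a or Cd8b1 alone in 35 blood T wells and 80 T line wells. At equal depth, Cd8b1 was seen in 13.2% of blood T wells (8.57 to 19.2%) and 5.83% of T line wells (2.38 to 11.6%). These intervals cover the draw of wells only, so the gap between the sides was not tested.

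Behind the receptor, some signalling genes were higher in blood T wells. Of 23 genes on that list 15 were expressed, 9 were called higher and 0 lower, at a median log2 ratio of 2.65, and 8 of 15 were also higher against the time-lapse line wells. Line plates are given in the order 1 to 4 throughout. Summed, the list reached 3945 to 5035 CPM on the blood plates (median 4374) and 779.3, 828.8, 956.5 and 942.998 CPM on the line plates. The kinase Prkcq, which links the receptor to NF-kappaB, lay between 113.2 and 421.4 CPM on the blood plates (median 136.1) and was 0 on all 4 line plates, at least 217.5-fold higher. The adaptor Sh2d2a lay between 169.4 and 474.04 CPM on the blood plates (median 276.1), with 1 count in all T line wells. The plates of both genes were apart. Zap70, the kinase that docks on the receptor, stood at 121.7 CPM in blood T wells and 117.7 CPM in T line wells, and its plates overlapped. The membrane proteins Ms4a4b and Ms4a6b gave the widest gaps of the list, at log2 ratios of 6.31 and 5.61.

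Lineage factors were shared in part. Of 21 factors 16 were expressed, 6 were called higher in blood T wells and 0 lower, with a median of 1.65. Satb1, a chromatin organiser of T cells, lay between 830.5 and 1404.8 CPM on the blood plates (median 1285.97), with 0, 2.85, 1.22 and 0.186 CPM on the 4 line plates, 1317.1-fold higher (510.8 to 4856). Ets1, a factor of lymphocyte survival and T cell genes, lay between 731.7 and 1283.5 CPM on the blood plates (median 1003.04), with 32.1, 14.3, 31.8 and 11.9 CPM on the 4 line plates, 48.6-fold higher (38.5 to 61.8). Bach2, a repressor that restrains effector differentiation, lay between 52.7 and 414.6 CPM on the blood plates (median 193.2), with 1 count in all T line wells. Ikzf1, Id2 and Rora were called as well, Rora at the 4-fold edge. Bcl11b, which holds T identity, stood at 367.8 against 329.2 CPM in blood and line, Gata3 at 529.1 against 361.7 CPM and Tcf7 as above, and their plates overlapped. Tox, a factor of thymic development, was low in blood at 5.66 against 60.6 CPM, and also missed the call because its plates overlapped.

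Genes of quiescence and homing were far higher in blood T wells. Of 24 such genes 22 were expressed, 19 were called higher in blood T wells and 0 lower, with a median log2 ratio of 4.36. Against the time-lapse line wells the count was 16 of 22 with a median of 4.39, and with wells that hold an NK gene left out it was again 19. The summed list reached 7437 to 11156 CPM on the blood plates (median 8886) and 412.96, 391.4, 195.3 and 197.9 CPM on the line plates. The lowest blood plate was thus far above the highest line plate.

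Il7r, the receptor chain for interleukin 7, had the largest log2 ratio of all genes called, 6.94. It lay between 760.9 and 1834 CPM on the blood plates (median 1143.8) and was 0 on all 4 line plates, at least 1736-fold higher. Thinned to 1000 counts, Il7r was seen in 58.6% of blood T wells (50.9 to 66.02%) and 0 of 120 T line wells (which allows up to 2.5%, or 3 wells). It was seen in 1.18% of the B cell wells, which were picked in part for few T cell genes. The antiproliferative gene Btg1 lay between 1141.4 and 1585 CPM on the blood plates (median 1424.1), with 26.7, 34.2, 18.3 and 20.5 CPM on the 4 line plates, 56.2-fold higher (45.6 to 69.97). Its relative Btg2 was 38.7-fold higher (25.4 to 60.4), and Tob1, of the same protein family, 7.69-fold higher (5.78 to 10.2). Cdkn1b, the cyclin-dependent kinase inhibitor p27, lay between 158.01 and 440.5 CPM on the blood plates (median 273.3), with 32.1, 29.5, 13.5 and 18.6 CPM on the 4 line plates, 13.2-fold higher (9.95 to 17.4). Every blood plate exceeded every line plate for each of these.

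The homing genes moved with them. Klf2, the factor that drives S1pr1 in T cells, lay between 113.2 and 544.2 CPM on the blood plates (median 464.1), with 4.73, 8.56, 0 and 2.23 CPM on the 4 line plates, 96.7-fold higher (58.2 to 170.8). S1pr1, the receptor by which lymphocytes leave lymph nodes, lay between 75.5 and 411.8 CPM on the blood plates (median 237.8), with 16.1, 24.3, 9.78 and 16.4 CPM on the 4 line plates, 14.6-fold higher (10.6 to 20.2). Both were called. Ccr7, the chemokine receptor for lymph nodes, lay between 0 and 406.1 CPM on the blood plates (median 206.7) and was 0 on all 4 line plates, so that 1 blood plate at 0 kept it from the call. Ccr7 was seen in 20.1% of blood T wells and 23.5% of B cell wells at equal depth, and S1pr1 in 25.9% and 27.1%. Satb1 was seen in 65.5% of blood T wells and 17 of 85 B cell wells.

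Schlafen and Gimap genes, known in lymphocyte quiescence and survival, were near absent from the line. Slfn2 lay between 641.9 and 895.4 CPM on the blood plates (median 673.8), with 1.89, 2.38, 2.45 and 0 CPM on the 4 line plates, 487.4-fold higher (220.7 to 1341.2). Gimap6 lay between 632.1 and 1053.6 CPM on the blood plates (median 801.5), with 0, 0, 1.22 and 0 CPM on the 4 line plates, and 1 count in all T line wells. Gimap3 and Gimap4 reached 292.8 against 0 CPM and 705.9 against 0.937 CPM in blood and line. The translation inhibitor Pdcd4 was 31.1-fold higher (23.1 to 42.3) and Txnip, a brake on glucose uptake, 11.3-fold higher (7.33 to 17.4). Foxo1, which drives Klf2 and Il7r in T cells, was 4.51-fold higher (3.5 to 5.76), with its plates apart, but at a log2 ratio just short of 2 once 10 CPM is added.

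**Figure D2:**
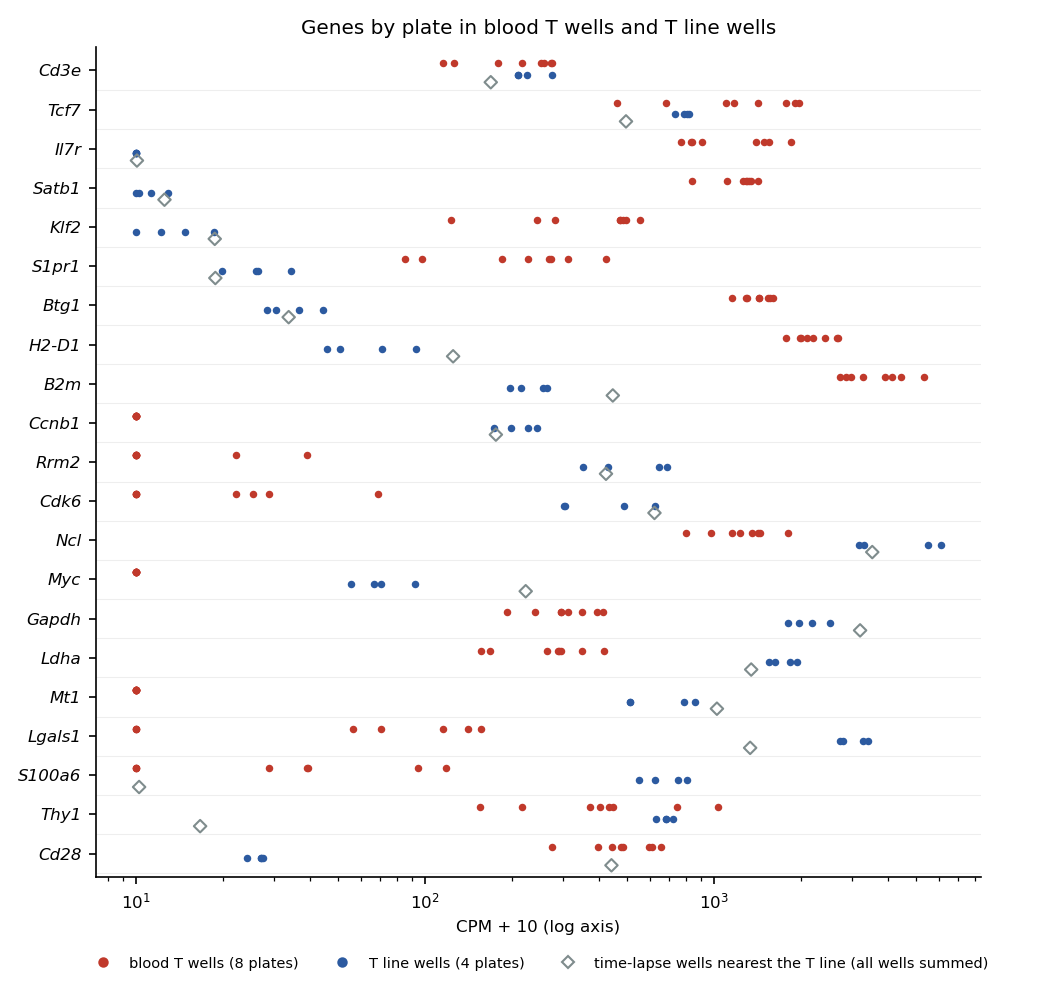
CPM plus 10 on a log axis for 21 genes, 1 red point for each of 8 blood plates and 1 blue point for each of 4 line plates, with an open grey diamond for the summed time-lapse line wells. For Il7r the blood plates sit between 760.9 and 1834 CPM and the line plates at 0, and for Mt1 the line plates stand above all blood plates. The diamond of Cd28 sits among the blood plates.

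Genes of the class I molecules that show peptides to CD8 T cells were in part higher in blood T wells. Of 22 genes for class I and antigen processing 14 were expressed, 5 were called higher in blood T wells and 0 lower, with a median log2 ratio of 0.75 (5 of 14 and 1.21 against the time-lapse line wells). The list as a whole reached 9202 to 15727 CPM on the blood plates (median 10972) and 3192, 3426, 3133 and 3219.8 CPM on the line plates. B2m, the light chain, lay between 2714 and 5323 CPM on the blood plates (median 3579.6), with 254.3, 246.8, 186.5 and 204.97 CPM on the 4 line plates, 16.2-fold higher (14.9 to 17.7). The heavy chain H2-D1 lay between 1764 and 2673 CPM on the blood plates (median 2139), with 60.99, 83.2, 40.8 and 35.7 CPM on the 4 line plates, 39.9-fold higher (34.4 to 46.4). The heavy chain H2-K1 lay between 1556 and 3249 CPM on the blood plates (median 2325), with 289.3, 315.4, 120.2 and 117.4 CPM on the 4 line plates, 10.96-fold higher (9.96 to 12.1). The blood plates lay far above the line plates for all 3. Class I heavy chains are near copies of each other and reads can be split among them, so values of single heavy chains, with H2-Q7 and H2-T22 also called, are uncertain. The time-lapse line wells were low too, at 436.4 CPM of B2m and 115.01 CPM of H2-D1. The peptide transporter Tap1 stood at 155.6 against 99.7 CPM and its plates overlapped.

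The promoters of H2-D1 and H2-K1 are shown because these genes moved together and are known to answer NF-kappaB and interferon. Sequences are the RefSeq windows of GRCm38.p6, from 250 bases before to 50 after the start, 5′ to 3′ on the gene's strand, at chr17:35262844-35263143 (plus) for H2-D1 and chr17:34000298-34000597 (minus) for H2-K1, 1 of 2 windows for that gene. Capitals mark the letters GGGGATTCC (a kappaB site) and TTTCNNTTC (an interferon response core), searched on both strands, with 1 match of each in both windows and no overlap.
H2-D1: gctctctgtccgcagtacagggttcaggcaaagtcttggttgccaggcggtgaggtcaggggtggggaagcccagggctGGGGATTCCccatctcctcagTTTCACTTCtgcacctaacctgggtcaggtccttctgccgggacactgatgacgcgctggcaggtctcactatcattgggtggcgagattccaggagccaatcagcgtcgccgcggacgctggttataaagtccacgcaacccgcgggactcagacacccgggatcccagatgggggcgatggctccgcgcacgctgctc
H2-K1: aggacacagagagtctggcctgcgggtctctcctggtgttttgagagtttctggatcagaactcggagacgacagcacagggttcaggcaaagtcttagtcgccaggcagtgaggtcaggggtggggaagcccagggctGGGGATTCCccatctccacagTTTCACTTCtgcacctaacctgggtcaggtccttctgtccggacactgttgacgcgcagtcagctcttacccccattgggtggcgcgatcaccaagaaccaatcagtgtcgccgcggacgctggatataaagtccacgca
The kappaB letters were in 0.250% of all 32851 promoter windows and the interferon letters in 7.52%. Genes were counted as holding a match if any of their windows did. By gene, the kappaB letters were in 0.296% of all 27025 genes with a window and in 4 of the 19 class I genes with one. The interferon letters were in 8.68% of all genes and 7 of the 19. A match describes the letters only.

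Interferon genes were mostly too low to read. Of 31, 10 were expressed, 4 were called higher and 0 lower. The factor Irf1 lay between 74.9 and 181.5 CPM on the blood plates (median 89.9), with 9.46, 15.2, 3.67 and 6.7 CPM on the 4 line plates, 13.04-fold higher (8.18 to 20.8). The GTPase gene Ifi47 lay between 74.9 and 264.2 CPM on the blood plates (median 172.1) and was 0 on all 4 line plates, at least 229.6-fold higher. Igtp and Trim30a were called as well. The ubiquitin-like Isg15 stood at 7.07 against 10.5 CPM and was not called.

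Early response genes were mostly higher in blood T wells, with Fos called lower. Of 23 genes 12 were expressed, 8 were called higher and 1 lower, at a median of 2.35, and 6 of 13 were higher against the time-lapse line wells. Nfkbia, the inhibitor that NF-kappaB induces, lay between 702.4 and 1243.8 CPM on the blood plates (median 926.3), with 77.5, 81.8, 37.3 and 37.9 CPM on the 4 line plates, 16.5-fold higher (13.96 to 19.5). The phosphatase gene Dusp2 was 57.7-fold higher (34.5 to 101.997), the AP-1 gene Junb 7.68-fold higher (6.02 to 9.75), and the factor Klf6 10.7-fold higher (8.55 to 13.4). Cd69, an early activation receptor that keeps lymphocytes in tissue, lay between 37.4 and 234.1 CPM on the blood plates (median 106.3), with 8.51, 7.61, 12.2 and 4.46 CPM on the 4 line plates. Fos had 1 count in all blood T wells, against 45.4, 115.1, 23.2 and 36.1 CPM on the 4 line plates. The time-lapse line wells held 172.1 CPM of Klf6 and 5.23 CPM of Fos.

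Effector and memory genes went both ways. Of 21 genes 14 were expressed, 4 were called higher in blood T wells and 5 lower. Over all genes 9.58% were called higher and 15.8% lower. The chemokine receptor Cxcr6 lay between 87.02 and 1207.96 CPM on the blood plates (median 334.1), with 13.2, 14.3, 29.3 and 26.04 CPM on the 4 line plates, 20.6-fold higher (15.7 to 27.1). Cxcr3, the receptor for interferon-induced chemokines, was 46.1-fold higher (23.3 to 99.4). S100a10, a partner of annexin A2, lay between 174.04 and 702.4 CPM on the blood plates (median 399.97), with 86.04, 86.4, 53.2 and 58.03 CPM on the 4 line plates, 6.34-fold higher (5.2 to 7.71), whereas Anxa2 itself was 31.7-fold lower (13.6 to 97.8). The calcium-binding S100a4 had 0 to 232.01 CPM on the blood plates (median 0) and 571.1, 624.4, 994.7 and 897.2 CPM on the 4 line plates, 13.6-fold lower (8.77 to 22.2). Lgals1 (galectin 1), a lectin of activated T cells, had 0 to 146.3 CPM on the blood plates (median 53.4) and 2722, 2786, 3390.1 and 3260.4 CPM on the 4 line plates, 48.8-fold lower (32.2 to 77.8). The line plates stood clear of the blood plates for both.

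Part of this group differed in the time-lapse line wells. In the time-lapse line wells S100a4 stood at 24.02 CPM, S100a6 at 0.235 CPM and the filament gene Vim at 50.5 CPM, so that the log2 ratios turned to 0.97, 2.50 and 0.31. Lgals1 stayed high there, at 1323.8 CPM. Against those wells, 5 of 11 expressed genes were called higher and 1 lower, beside 7.96% and 13.8% of all genes. In the random line wells S100a4 stood at 895.8 CPM, S100a6 at 753.9 CPM and Vim at 518.9 CPM. Against the random line wells these genes were again called lower in blood T wells.

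Some blood T wells carried cytotoxic genes. Of 18 cytotoxic and NK genes 4 were expressed and 3 called higher, against 14 at 0 counts in the T line wells. Ctsw, a protease gene of NK and CD8 T cells, lay between 336.9 and 1082.9 CPM on the blood plates (median 475.3) and was 0 on all 4 line plates, at least 777.4-fold higher. The chemokine gene Ccl5 lay between 154.7 and 1287.8 CPM on the blood plates (median 501.9), with 0, 17.1, 3.67 and 42.4 CPM on the 4 line plates, 31.3-fold higher (23.98 to 41.2). The NK receptor gene Klrb1c had a count in 26 blood T wells, the NK receptor gene Ncr1 in 3, and any of Ncr1, Klrb1c, Tyrobp and Fcer1g in 28 blood T wells and 2 T line wells. With those wells left out, 2 cytotoxic genes remained expressed and 1 was called higher, and effector genes were called higher for 2 and lower for 5. Klrb1c is absent from the remaining wells by that choice, so its loss is no result. Cxcr6 then stood at 254.1 against 20.6 CPM in blood and line, Ccl5 at 273.02 against 18.3 CPM, Junb at 271.3 against 42.4 CPM and Cd69 at 68.7 against 7.73 CPM, and these 4 lost their calls, as did H2-T22 and Rora. The count of genes called higher was then 19 for quiescence and homing, 4 for MHC class I and 5 for early response genes, and 22 genes of G2 and mitosis were called lower.

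**Figure D3:**
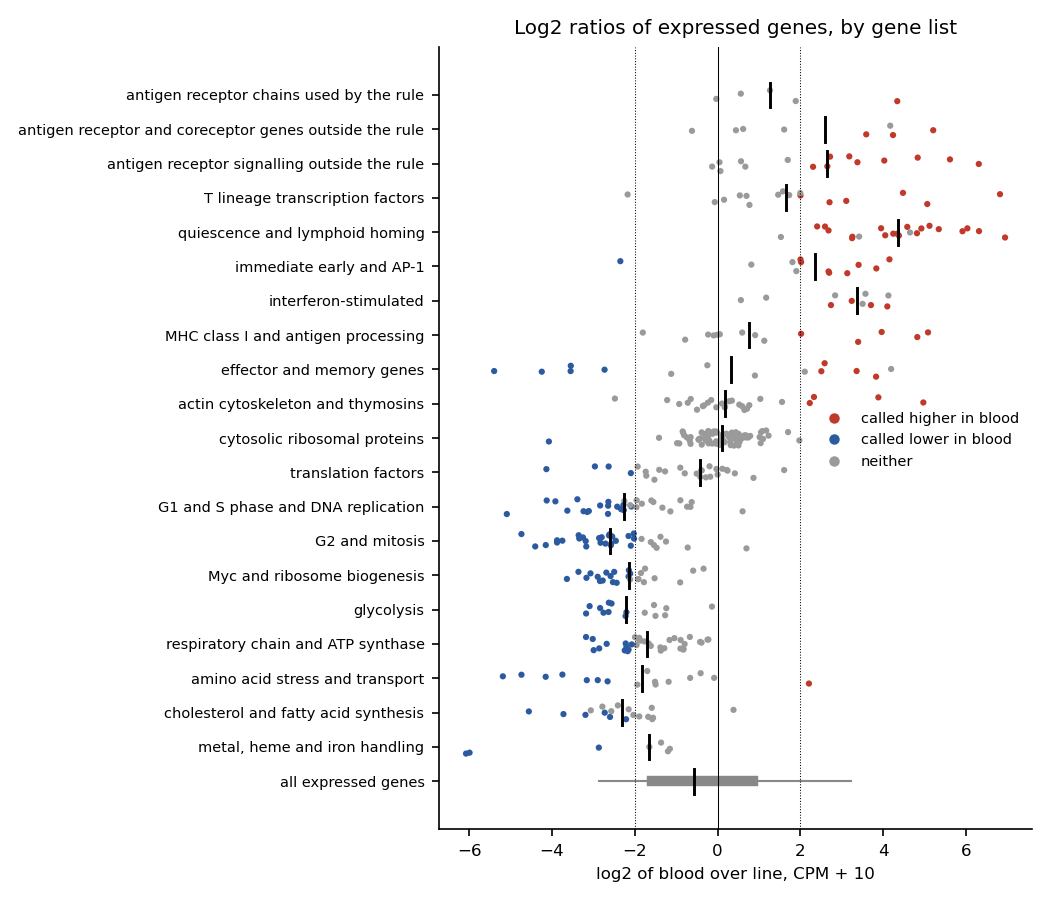
Log2 ratio of blood T wells to T line wells, with 10 CPM added, for the expressed genes of 20 lists, 1 point a gene, with a black bar at each median. The bottom row shows all 4010 genes by their 5 to 95% and 25 to 75% ranges. Quiescence and homing genes sit furthest to the right (median 4.36) and genes of G2 and mitosis furthest to the left among the cell cycle lists (median -2.61), while ribosomal protein genes stay near 0 (median 0.11).

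Cell cycle genes were the reverse of the quiescence genes. Of 35 genes of G2 and mitosis 33 were expressed, 0 were called higher in blood T wells and 25 lower, with a median log2 ratio of -2.61, and 14 of 32 were lower against the time-lapse line wells. The list reached 1623 to 4800.1 CPM on the blood plates (median 2958) and 13447, 12021, 14786 and 14991 CPM on the line plates. Of 32 genes of G1, S phase and replication, 31 were expressed and 17 were called lower, at a median of -2.27. Over all genes 15.8% were called lower, and 13.8% against the time-lapse line wells.

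The mitotic cyclin Ccnb1 was at 0 on all 8 blood plates, against 187.7, 163.1, 216.4 and 234.7 CPM on the 4 line plates, at least 23.8-fold lower. Plk1, the kinase that drives mitotic entry, was at 0 on all 8 blood plates, against 135.2, 95.1, 115.6 and 144.7 CPM on the 4 line plates, at least 14.7-fold lower. Ube2c, which tags mitotic proteins for destruction, had 2 counts in blood T wells, against 281.8, 244.4, 270.2 and 274.5 CPM on the 4 line plates, 47.4-fold lower (13.1 to 391.7). The alpha tubulin gene Tuba1b had 87.8 to 377.1 CPM on the blood plates (median 251.05) and 3277, 2814, 4269 and 4305 CPM on the 4 line plates, 15.3-fold lower (12.4 to 19.2). Of these, Tuba1b has enough blood counts to give its fold closely, although tubulin genes are near copies of each other and can share reads. Smc4, a condensin subunit, went the other way without a call, at 1425.95 CPM in blood T wells and 876.4 CPM in T line wells.

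In S phase genes, the ribonucleotide reductase subunit Rrm2 had 2 counts in blood T wells, against 421.2, 341.4, 636.4 and 678.9 CPM on the 4 line plates, 92.6-fold lower (25.6 to 765.1). Thymidine kinase Tk1 was at 0 on all blood plates, against 121.97, 97.01, 97.8 and 130.2 CPM on the 4 line plates, at least 13.4-fold lower. The G1 kinase Cdk6 had 0 to 58.5 CPM on the blood plates (median 6.05) and 294.1, 292.9, 613.8 and 476.1 CPM on the 4 line plates, 29.1-fold lower (12.5 to 89.9). Not every gene of the cycle was low in blood. The sliding clamp Pcna stood at 186.7 against 423.7 CPM, the G1 cyclin Ccnd3 at 229.2 against 388.6 CPM and Ccnd2 at 209.4 against 134.5 CPM, all short of 4-fold, and the plates of Ccnd2 and Ccnd3 overlapped.

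Promoters of Plk1 and Ube2c are shown because mitotic genes moved together and such genes are known for the CHR element and CCAAT boxes. The windows lie at chr7:122159185-122159484 (plus) for Plk1 and chr2:164769679-164769978 (plus) for Ube2c, from RefSeq on GRCm38.p6. Capitals mark TTTGAA (CHR) and CCAAT on either strand, with 1 of each in Plk1 and 1 CHR and 6 CCAAT matches in Ube2c, 1 pair of them overlapping.
Plk1: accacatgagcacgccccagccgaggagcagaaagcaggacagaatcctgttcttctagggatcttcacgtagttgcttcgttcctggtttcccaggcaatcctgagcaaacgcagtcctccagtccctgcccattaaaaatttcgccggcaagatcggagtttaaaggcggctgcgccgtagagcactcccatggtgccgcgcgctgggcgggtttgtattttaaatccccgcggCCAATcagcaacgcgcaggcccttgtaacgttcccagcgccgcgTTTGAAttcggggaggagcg
Ube2c: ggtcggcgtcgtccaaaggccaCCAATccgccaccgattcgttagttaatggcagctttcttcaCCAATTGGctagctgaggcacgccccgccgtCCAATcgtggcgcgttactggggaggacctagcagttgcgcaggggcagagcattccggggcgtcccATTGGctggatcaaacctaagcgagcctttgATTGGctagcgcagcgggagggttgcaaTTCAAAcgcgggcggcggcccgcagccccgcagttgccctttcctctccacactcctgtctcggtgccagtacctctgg
TTTGAA was in 17.9% of all windows, 14.3% of the 3201 expressed genes with a window, 20 of 29 genes of G2 and mitosis and 2 of 27 of G1 and S phase. CCAAT was in 37.4% of all windows, 43.4% of those expressed genes, 24 of 29 and 14 of 27.

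Well by well, quiescence and homing genes separated the sides with little overlap. Genes of G2 and mitosis differed in the median but overlapped in range. In wells thinned to 1000 counts, G2 and mitosis genes took 0.3% of counts in the median blood T well (quartiles 0.1 and 0.4%) and 1.4% in the median T line well (1 and 1.7%). The wells ran from 0 to 3.3% in blood and from 0.1 to 2.6% in the line. Only 2 blood T wells (1.15%) reached the line median, and 18 (10.3%) had no such count. Quiescence and homing genes took 0.9% in the median blood T well (0.7 and 1.2%) and 0% in the median T line well, where 93 of 120 wells had none. Above the highest T line well, at 0.2%, stood 170 blood T wells (97.7%).

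**Figure D4:**
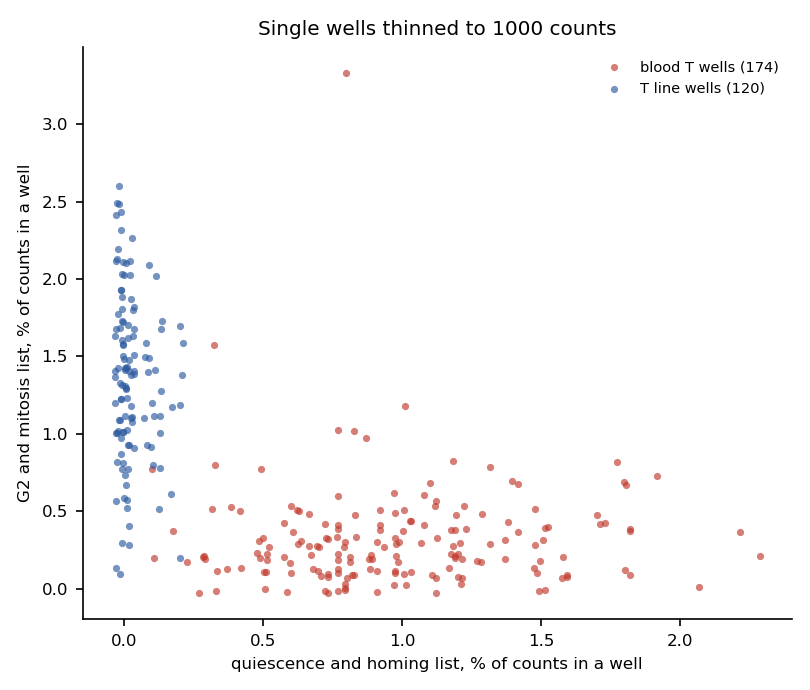
Each point is 1 well thinned to 1000 counts, with the share of counts from quiescence and homing genes on 1 axis and from genes of G2 and mitosis on the other, in percent, and a small jitter added. Red marks blood T wells, all but the 2 too shallow to thin, and blue 120 T line wells. The blood T wells spread along the quiescence axis (median 0.9%) near the foot of the mitosis axis (median 0.3%), the T line wells the other way (0% and 1.4%), and 1 blood T well stands at 3.3% mitosis.

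Many growth genes were lower in blood T wells than in the line. Of 27 genes of Myc and ribosome biogenesis 25 were expressed, 0 were called higher and 15 lower, at a median of -2.15, and 18 of 25 were lower against the time-lapse line wells. The list reached 2605 to 4191 CPM on the blood plates (median 3049) and 9509, 9721, 17395 and 15696 CPM on the line plates, so the line plates differed among themselves, with plates 3 and 4 above 1 and 2. Myc, the gene of a transcription factor that drives growth, was at 0 on all blood plates, against 82.3, 60.4, 45.2 and 56.5 CPM on the 4 line plates, at least 7.27-fold lower. Nop58, a core protein of the particles that methylate ribosomal RNA, had 0 to 116.03 CPM on the blood plates (median 55.6) and 379.9, 367.6, 851.04 and 765.9 CPM on the 4 line plates, 10.4-fold lower (6.72 to 17.1). Nucleolin (Ncl) had 790.1 to 1798 CPM on the blood plates (median 1282.05) and 3177, 3297, 6090.0 and 5479 CPM on the 4 line plates, 3.39-fold lower (3.09 to 3.72), with plates apart but short of 4-fold.

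The ribosome itself did not follow. Of 80 cytosolic ribosomal protein genes, all expressed, 0 were called higher and 1 lower, with a median log2 ratio of 0.11 (-0.10 with Rn45s kept in the totals), and together they took 22.04% of counts in blood T wells and 19.3% in T line wells. The gene called lower was Rps27l, a paralog of Rps27 known as a p53 target, at 22.6 against 540.2 CPM. Of 27 translation factors 4 were called lower, a share close to the 15.8% of all genes, among them the cap-binding protein Eif4e and its inhibitor Eif4ebp1, the last at 0 counts in blood and at least 19.5-fold lower. Ribosomal protein genes have many processed copies, so the values of single genes are uncertain.

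Some glycolysis and respiration genes were lower in blood T wells. Of 20 glycolysis genes 15 were expressed and 9 were called lower, 0 higher, at a median of -2.22, beside 15.8% of all genes called lower. The sum was 2014 to 3326 CPM on the blood plates (median 2450.3) and 11514, 10953, 9311 and 10127 CPM on the line plates. Gapdh had 181.4 to 403.5 CPM on the blood plates (median 294.3) and 2513, 2177, 1788 and 1964 CPM on the 4 line plates, 7.34-fold lower (6.04 to 9.01). Lactate dehydrogenase Ldha had 146.3 to 406.1 CPM on the blood plates (median 279.6) and 1931, 1825, 1544 and 1609.9 CPM on the 4 line plates, 6.37-fold lower (5.21 to 7.87). The plates of both were apart. All 36 genes of the respiratory chain and ATP synthase were expressed with log2 ratios from -3.18 to -0.22. Of these 11 were called lower and 25 were not called, beside 15.8% of all genes called lower, with a list median of -1.72. Cox7b, a subunit of cytochrome oxidase, had 29.01 to 117.1 CPM on the blood plates (median 52.2) and 603.7, 578.2, 538.02 and 613.6 CPM on the 4 line plates, 9.03-fold lower (6.01 to 14.3). With Rn45s kept in the totals the medians were -2.37 for glycolysis and -1.89 for respiration, and with log2 ratios centred on genes present on both sides -2.14 and -1.63.

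Amino acid genes were led by serine synthesis. Of 21 genes 16 were expressed, 1 was called higher in blood T wells and 7 lower. Phgdh, the first enzyme of serine synthesis, had 0 to 58.5 CPM on the blood plates (median 27.5) and 1445.9, 1295.5, 981.7 and 996.8 CPM on the 4 line plates, 52.1-fold lower (26.4 to 120.7). Psat1, the next enzyme, had 1 count in blood T wells, against 373.5, 429.9, 245.8 and 276.02 CPM on the 4 line plates, 117.4-fold lower (21.04 to 4641). Asparagine synthetase Asns was at 0 in blood, against 275.1, 251.6, 92.9 and 63.6 CPM on the 4 line plates, at least 19.8-fold lower. Slc38a2, a neutral amino acid transporter, was the gene called higher, 4.85-fold higher (4.18 to 5.62), but it stood at 470.003 CPM in the time-lapse line wells and was not called against them.

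Of 20 genes of cholesterol and fatty acid synthesis 18 were expressed and 6 were called lower, 0 higher, at a median of -2.31. Over all genes 15.8% were called lower. The list reached 464.03 to 731.7 CPM on the blood plates (median 588.1) and 4361, 4572, 1473.1 and 1522.9 CPM on the line plates. Line plates 1 and 2 thus stood well above plates 3 and 4, but each exceeded every blood plate. Cyp51, which demethylates lanosterol, had 1 count in blood T wells, against 395.2, 441.3, 198.1 and 152.5 CPM on the 4 line plates, 103.4-fold lower (18.5 to 4086). Sqle, the squalene oxidase, was at 0 in blood, against 148.4, 169.8, 63.6 and 99.7 CPM on the 4 line plates, at least 14.4-fold lower. Against the time-lapse line wells 3 of 11 expressed genes were called lower, at a median of -1.30, beside 13.8% of all genes.

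**Figure D5:**
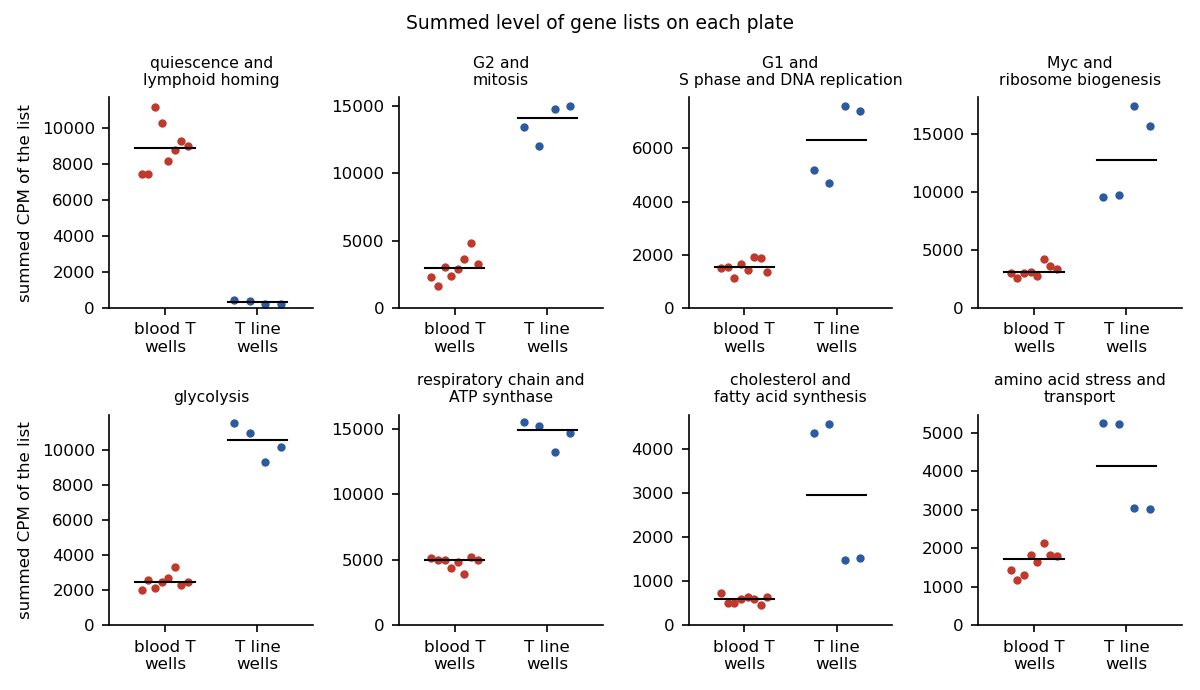
Summed CPM of 8 gene lists on each plate, on axes that start at 0, with 8 blood plates in red on the left of each panel and 4 line plates in blue on the right, and a bar at each median. Quiescence and homing genes total at least 7437 CPM on every blood plate and at most 412.96 CPM on the line plates, and the order is reversed for the cell cycle, ribosome biogenesis, glycolysis, respiration and cholesterol lists.

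The metallothioneins had the lowest log2 ratios of all 4010 genes, -6.08 for Mt1 and -5.99 for Mt2. Of 11 genes for metal, heme and iron 7 were expressed and 3 were called lower in blood T wells, beside 15.8% of all genes. Mt1, which binds zinc and copper, was at 0 on all 8 blood plates, against 503.97, 503.6, 777.1 and 849.3 CPM on the 4 line plates, at least 78.3-fold lower. Mt2 was at 0 as well, against 503.02, 621.5, 684.7 and 691.2 CPM on the 4 line plates, at least 73.8-fold lower. The transferrin receptor Tfrc, the port for iron in dividing cells, had 0 to 158.01 CPM on the blood plates (median 29.97) and 213.7, 271.5, 325.3 and 410.1 CPM on the 4 line plates, 9.17-fold lower (5.23 to 17.8). Mt1 was seen in 0% of blood T wells (which allows up to 1.72%) and in 42.5% of T line wells (33.5 to 51.9%) at equal depth. In the time-lapse line wells Mt1 stood at 1013.5 CPM and Mt2 at 1050.1 CPM.

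The promoters of both metallothioneins are shown because the genes are neighbours, moved together and are known to answer zinc through metal response elements. They lie at chr8:94178839-94179138 (plus) for Mt1 and chr8:94172368-94172667 (plus) for Mt2, from RefSeq on GRCm38.p6. Capitals mark the metal response core, TGCGCNC or TGCACNC on either strand, with 3 matches in Mt1 and 4 in Mt2.
Mt1: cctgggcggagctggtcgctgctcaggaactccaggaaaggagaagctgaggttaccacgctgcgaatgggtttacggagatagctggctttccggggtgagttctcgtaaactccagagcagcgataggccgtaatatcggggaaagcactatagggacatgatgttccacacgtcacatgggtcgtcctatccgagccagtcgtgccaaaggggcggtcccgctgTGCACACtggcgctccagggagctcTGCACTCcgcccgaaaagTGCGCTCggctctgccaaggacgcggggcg
Mt2: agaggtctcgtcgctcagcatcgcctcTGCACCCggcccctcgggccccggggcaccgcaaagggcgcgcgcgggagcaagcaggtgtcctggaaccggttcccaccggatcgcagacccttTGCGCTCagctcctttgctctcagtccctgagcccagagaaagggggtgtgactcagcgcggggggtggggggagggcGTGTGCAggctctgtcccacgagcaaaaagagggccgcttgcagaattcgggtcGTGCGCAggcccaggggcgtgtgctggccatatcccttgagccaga
These short letters were in 25.7% of all windows and 42.3% of the 3201 expressed genes with a window, and in 4 of the 8 genes of the metal list that have one.

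Some of the largest log2 ratios lay outside these lists. Among the 20 genes furthest up in blood T wells were Selplg, a ligand of selectins, at 530.5 against 0.937 CPM in blood and line, the small surface glycoprotein gene Cd52 at 642.2 against 3.51 CPM and Spn (CD43) at 578.6 against 2.58 CPM. The adaptor Fyb, which links the antigen receptor to integrins, stood at 936.5 against 13.8 CPM, and Dgka, a kinase that dampens diacylglycerol signals of the receptor, at 712.98 against 5.15 CPM. Among the 20 furthest down were the fatty acid carrier Fabp5 at 5.66 against 465.8 CPM, the nucleotide kinase Nme1 at 14.1 against 595.6 CPM, the lamin gene Lmna at 2.83 against 269.3 CPM and the kinetochore gene Spc24 at 0 against 201.9 CPM. The plates of all 9 were apart.

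Of 15 p53 target genes 7 were expressed and 3 were called higher, Trp53inp1, Sesn1 and Btg2, beside 9.58% of all genes. Of 27 actin genes 4 were called higher and 0 lower, with a list median of 0.18, a share not far from the 9.58% of all genes called higher. Tmsb10, a thymosin that binds actin monomers, was 15.3-fold higher (14.1 to 16.7) and Coro1a, which keeps T cells alive in the periphery, 5.16-fold higher (4.63 to 5.74). Among noncoding RNAs Malat1, a nuclear RNA, had 16378 to 19123 CPM on the blood plates (median 18292) and 1006.04, 1200.5, 1622 and 915.3 CPM on the 4 line plates, 15.7-fold higher (15.1 to 16.3). Xist, the RNA of the inactive X chromosome, had 105.3 to 572.3 CPM on the blood plates (median 313.5) and 0, 5.71, 0 and 0 CPM on the 4 line plates, 249.7-fold higher (111.5 to 693.6), while the Y genes Ddx3y, Eif2s3y, Kdm5d and Uty had 0 counts on both sides. Of 13 progenitor line genes, 12 platelet and red cell genes and 12 B cell genes listed in both tables, 0 reached the expression minimum.

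Detected genes per well depended on depth. Unthinned, blood T wells averaged 1090.2 genes and T line wells 5970. At 1000 counts a well the means were 648.2 in blood T wells (plates 620.8 to 663.2) and 692.6 in T line wells (plates 673.6 to 711.7), with 2 blood T wells too shallow to thin. The blood plates stayed below the line plates, and the 50 most abundant genes took 23.1% of counts in blood T wells and 20.2% in T line wells.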

How the data were processed

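RNA of single picked cells was measured well by well, with molecular barcodes and added ERCC controls per the labels' protocols. The deposited tables hold expected counts per gene and well, as the authors made them. About 5.08% of positive values in blood T wells and 5.86% in T line wells are not whole. STAR, bcl2fastq and the mm10 build are named in the submitters' processing notes, without versions. What the counter did with reads shared by near-identical genes is not given in the sources used here. No 2 wells held identical values.

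Wells were grouped by their labels and, for the blood, by the rule on counts given above. Wells of a side were summed, per plate and in all, over the 24781 genes in both tables, and scaled to CPM without Rn45s, whose share differed between the sides. Counts were rounded for thinning and for the intervals, which are exact binomial (Clopper-Pearson) at 95%. Intervals on folds cover counting error only. Those on shares of wells treat wells as independent draws and leave out differences among plates, animals and cultures. A fold is a ratio of CPM with nothing added, and a gene at 0 counts on a side was set to 3 counts over that side, which gives a lower bound. A log2 ratio has 10 CPM added to both sides and so understates the change of low genes. Named genes are the 20 called genes with the largest log2 ratio in each direction, without predicted symbols, and members of 27 lists. Some of these genes are not reported here. The members, lists and thresholds were chosen with earlier results of these data known. The alternatives changed the scaling, the pseudocount, the minimum level, the fold, the blood rule, the line wells and the depth, and left out each plate in turn. The calling was checked on simulated wells drawn from the T line profile with known fold changes. Those wells had no differences among plates, so the check does not cover such differences. Promoters came from RefSeq windows. The work was done in Python 3.11.15 with scipy 1.17.1, numpy 2.4.6, matplotlib 3.10.9 and pandas 2.3.3.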

Additional observations from a re-analysis of the deposited data

Results flagged for a closer look

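Plates of 1 side were searched for 1 plate far from the others, by the gap to its nearest neighbour over the whole range (Dixon's rule), for the genes given by plate and for the list sums, wherever a side held at least 30 counts. A plate stood apart in 5 sets, 4.03% of those searched, and chance flags about 1 in 20. Among blood T wells, Prkcq stood high at 421.4 CPM and Slfn2 at 895.4 CPM on plate 5, the plate with the fewest counts. Among T line wells, Cd28 was low on plate 2 at 14.3 CPM, and on the same plate immediate early genes summed to 1020.7 CPM and progenitor line genes to 35.2 CPM, above the other 3 line plates.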

How the results depend on the processing

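Under 19 alternatives and with each plate left out, 0 genes called in 1 direction were called in the other. Counts moved with the threshold and depth. Set against the number called above, taken as 100%, the genes called lower in blood T wells came to 42.7% of it with a pseudocount of 30 CPM, 65.9% at a minimum of 100 CPM and 53.2% with T line wells thinned to the depth of the blood T wells. At 2-fold the genes called higher came to 166.7% and those called lower to 189.7%, and at 8-fold to 49.5% and 24.4%. Of all called genes 37.7% were higher, against 53.1% with thinned T line wells, 48.96% with a pseudocount of 30 CPM and 55.1% at 8-fold. With Rn45s kept in the totals the genes called higher came to 83.1% and those called lower to 108.2%, and with log2 ratios centred on genes present on both sides 107.6% and 92.7%. Leaving out each plate gave 89.3 to 105.5% for genes higher and 97.003 to 103.9% for genes lower. Against line wells picked at random from the mixture and nearest the T profile, 96.4% of the genes called higher and 92.6% of those called lower were called again. Against time-lapse line wells 70.1% and 64.04% were, and S100a4 (0.97), S100a6 (2.50) and Vim (0.31) changed sign. The cause was not tested. Median genes per well at 1000 counts differed by -48.5 (blood minus line), and by -98 with Rn45s kept. With each plate left out, the difference of medians ran from -56.5 to -42.5. No paired analysis was possible because the sides share no plate. The depth of the blood T wells limits how large a fold can be read for genes called lower, since 74 of these had no blood count.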

Other observations

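Pde5a, a phosphodiesterase of cyclic GMP, had a larger log2 ratio (7.60) than any gene called, with 2151 CPM in blood T wells and 1.17 CPM in T line wells. Its 760 counts lay in 25 blood T wells on 7 plates, but 90.6% of them were in 1 well and 96.5% on plate 3, and 2 wells had at least 10 counts. The blood plates ran from 0 to 13720 CPM with a median of 67.9.

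A single blood T well on plate 7 carried a broad set of mitotic genes. Of its 3017 counts 3.61% fell on genes of G2 and mitosis, against 1.56% in the next well and 0.267% in the median blood T well, and 22 of the 35 genes had a count in it. The well held 19 of the 23 Top2a counts and 7 of the 8 Mki67 counts of all blood T wells, so the low blood sums of these 2 genes rest largely on it.

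The small structural RNA listed as Rn4.5s separated line plates 1 and 2 from plates 3 and 4, as the cholesterol and ribosome biogenesis lists did, with 47851, 46444, 12187 and 13982 CPM on the 4 line plates.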
